A study of Homo sapiens with 8 samples.

Results

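The human zinc finger genes whose symbols begin with ZNF and that lie on chromosome 19 were followed in P1, P2, P3 and P4 hESCs. Members were all protein-coding genes with such a symbol and position in GENCODE release 29 on GRCh38, matched by Ensembl identifier. The rule found 249 genes among the 60675 genes of the files, or 249 of the 515 protein-coding ZNF genes in the annotation, and it used no expression value.

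Genes of this family encode proteins with tandem C2H2 zinc fingers, each of which contacts a few bases of DNA. In many of them a KRAB domain precedes the fingers and recruits TRIM28, which in turn brings the histone methyltransferase SETDB1 and heterochromatin proteins to the bound site. Many bind transposable elements, and the family grew by tandem duplication, so that neighbours on the chromosome are often close paralogs. In pluripotent cells, KRAB zinc finger proteins are known for the silencing of endogenous retroviruses and for the protection of imprinted regions.

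All samples were of the hESC line H9 (WA09), grown without feeder cells on Matrigel in mTeSR1 medium and passaged with dispase, with no agent added that differed between groups. The labels place P1 hESCs at passages from 40, P2 hESCs from 100, P3 hESCs from 200 and P4 hESCs from 300, and 2 samples of each were sequenced, 8 in all. The study describes P3 and P4 hESCs as carrying a copy number gain of the segment with TPX2 and BCL2L1, which is not on the chromosome studied here. Each group is 1 culture lineage of 1 cell line, so time in culture and the history of a lineage cannot be told apart. Nothing in the labels says whether the samples of a group were separate cultures, so the p-values measure the spread between these samples, which may be technical. The libraries were strand-specific mRNA libraries.

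The expected counts summed to between 26874899 and 38095600 per sample. Mitochondrial genes took from 5.89% to 18.5% of them and the share was uneven between replicates 1 and 2 of 3 lines, with 9.84% and 18.5% in P1, 18.4% and 7.53% in P3, and 17.2% and 5.89% in P4. The hESC markers fixed for this report were high in every sample, with POU5F1 at 1095 to 2421 TPM, LIN28A at 330 to 588 TPM, TDGF1 at 385 to 635 TPM, DPPA4 at 216 to 659 TPM, SOX2 at 119 to 191 TPM, NANOG at 33.6 to 80.5 TPM, ZFP42 at 27.5 to 108 TPM and PRDM14 at 25.2 to 44.4 TPM. None of these 8 genes was called in a comparison. Of 20 markers of other cell types, 8 stayed under 0.5 TPM in every sample (GSC, SOX17, GATA6, PAX6, SOX1, COL3A1, LUM and CGA), and 3 were expressed and not called, NES (122 to 210 TPM), COL1A1 (51.3 to 150 TPM) and KRT7 (3.77 to 14.3 TPM). The other 9 reached between 0.5 and 5 TPM in at least 1 sample. Of these, TBXT, OTX1, TWIST1 and GATA3 were at most 0.61, 0.91, 0.90 and 0.86 TPM and MIXL1 at most 1.29 TPM. CXCR4 had 1.06 to 4.62 TPM, and TFAP2A, a trophoblast factor, had 2.56 TPM in P1 replicate 2 and at most 1.37 TPM in the others, and its log2 fold change of -4.27 in P3 compared with P1 hESCs was not called (FDR 0.021 from edgeR). EOMES, a mesendoderm factor, was called lower in P3 than in P1 hESCs and was at most 1.52 TPM. FOXA2, an endoderm factor, was called higher in P3 than in P1 hESCs, with 2.72 and 3.63 TPM in P3 and at most 0.53 TPM in the others. The 4 endoderm markers summed to 1.65 to 2.61 TPM in P1, 2.14 to 2.43 TPM in P2, 5.61 to 6.72 TPM in P3 and 2.54 to 4.77 TPM in P4 hESCs, and the 4 trophoblast markers to 11.8 to 12.9, 14.6 to 16.5, 8.14 to 11.8 and 5.28 to 7.5 TPM. The 4 mesendoderm markers summed to 1.44 to 1.59, 2.92 to 3.34, 0.62 to 0.76 and 0.89 to 2.25 TPM in this order, the 4 neuroectoderm markers to 134 to 155, 185 to 186, 162 to 211 and 123 to 136 TPM, mostly NES, and the 4 mesenchyme markers to 93.1 to 151, 102 to 106, 52.0 to 59.8 and 62.4 to 64.3 TPM, mostly COL1A1. The part of these genes in the results below was not tested.

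The members the results turn on are shown first by their promoters, because CpG-rich promoters are the elements at which genes of this family are commonly methylated. The windows hold 250 bases before and 50 bases after a transcription start, from RefSeq on GRCh38.p14, written 5′ to 3′ on the strand of the gene, with each CG dinucleotide in capitals. ZNF560 (chr19:9498567-9498866, reverse strand), ZNF880 (chr19:52369673-52369972, forward strand) and ZNF528 (chr19:52397599-52397898, forward strand) were high in P3 and P4 hESCs. ZNF229 (chr19:44448529-44448828, reverse strand) and ZNF667 (chr19:56477296-56477595, reverse strand) were high in P4 hESCs, and ZNF726 (chr19:23914636-23914935, forward strand) was low in both lines.
ZNF560: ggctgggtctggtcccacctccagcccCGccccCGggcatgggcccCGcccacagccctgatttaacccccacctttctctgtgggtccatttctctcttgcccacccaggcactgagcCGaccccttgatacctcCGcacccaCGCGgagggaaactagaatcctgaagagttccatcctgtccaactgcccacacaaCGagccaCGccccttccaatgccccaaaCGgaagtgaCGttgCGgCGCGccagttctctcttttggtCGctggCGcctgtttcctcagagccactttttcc
ZNF880: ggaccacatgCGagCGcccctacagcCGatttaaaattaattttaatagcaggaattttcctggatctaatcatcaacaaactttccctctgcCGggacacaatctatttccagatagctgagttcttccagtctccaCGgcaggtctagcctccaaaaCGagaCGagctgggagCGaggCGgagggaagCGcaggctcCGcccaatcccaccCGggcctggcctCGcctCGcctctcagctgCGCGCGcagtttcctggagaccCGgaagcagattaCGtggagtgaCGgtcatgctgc
ZNF528: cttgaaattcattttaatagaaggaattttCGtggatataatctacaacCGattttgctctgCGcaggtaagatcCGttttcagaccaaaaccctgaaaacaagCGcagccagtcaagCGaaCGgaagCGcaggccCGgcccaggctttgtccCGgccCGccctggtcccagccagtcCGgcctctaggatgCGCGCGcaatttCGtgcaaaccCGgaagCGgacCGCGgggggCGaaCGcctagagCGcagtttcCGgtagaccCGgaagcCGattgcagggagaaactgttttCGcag
ZNF229: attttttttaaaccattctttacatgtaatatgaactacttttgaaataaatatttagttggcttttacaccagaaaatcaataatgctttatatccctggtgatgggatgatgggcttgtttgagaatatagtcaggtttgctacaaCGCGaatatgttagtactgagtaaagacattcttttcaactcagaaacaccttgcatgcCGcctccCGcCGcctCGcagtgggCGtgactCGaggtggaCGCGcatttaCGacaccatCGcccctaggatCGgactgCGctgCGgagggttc
ZNF667: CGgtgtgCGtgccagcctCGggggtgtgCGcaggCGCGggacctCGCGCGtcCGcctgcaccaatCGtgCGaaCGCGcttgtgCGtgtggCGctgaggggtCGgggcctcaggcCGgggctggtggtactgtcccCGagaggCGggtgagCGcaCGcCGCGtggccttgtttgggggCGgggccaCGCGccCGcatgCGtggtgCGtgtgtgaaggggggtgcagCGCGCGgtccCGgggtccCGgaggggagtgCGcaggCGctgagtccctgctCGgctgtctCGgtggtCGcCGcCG
ZNF726: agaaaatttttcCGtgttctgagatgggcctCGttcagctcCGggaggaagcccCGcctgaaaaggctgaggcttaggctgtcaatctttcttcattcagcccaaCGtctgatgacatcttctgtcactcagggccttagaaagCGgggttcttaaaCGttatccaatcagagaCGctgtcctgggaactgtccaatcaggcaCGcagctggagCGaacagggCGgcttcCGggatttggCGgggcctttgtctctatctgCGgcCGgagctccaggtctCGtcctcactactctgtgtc

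These windows held 16 CG dinucleotides in ZNF560, 20 in ZNF880, 27 in ZNF528, 15 in ZNF229, 42 in ZNF667 and 16 in ZNF726. A promoter was found for 217 of the 249 members, and the median was 20 CG dinucleotides per window of 300 bases, compared with 14 over all 35116 promoters listed. By the clusters described below, the median ranged from 10 in cluster 4 (29 windows) to 26 in cluster 5 (4 windows). Each member gave 1 window, whereas the windows of all promoters were not limited to coding genes or to 1 per gene. At least 10 CG dinucleotides were held by 93.1% of the members' windows and 56.4% of all windows. The median GC content was 60.0% in the members and 58.7% in all, so the windows differed more in CG dinucleotides than in base composition. The run ACCCGGAAG, chosen after the sequences had been seen and searched on both strands, occurred in 27 members (12.4% of the 217) and in 1.07% of all promoters. Of these 27 members, 17 lay among the 33 windows of the cluster that holds ZNF880 and ZNF528, where neighbouring genes are paralogs and share sequence. No methylation was measured in these samples.

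The members fell into 9 clusters of at least 5 genes when genes less than 1 Mb apart were joined, with 11 members outside them. On the short arm these were ZNF554 to ZNF77 (cluster 1, 5 members), ZNF557 to ZNF846 (cluster 2, 16 members), ZNF653 to ZNF791 (cluster 3, 26 members) and ZNF101 to ZNF254 (cluster 4, 37 members). On the long arm they were ZNF302 to ZNF792 (cluster 5, 5 members), ZNF565 to ZNF573 (cluster 6, 26 members), ZNF575 to ZNF296 (cluster 7, 24 members), ZNF175 to ZNF331 (cluster 8, 40 members) and ZNF628 to ZNF446 (cluster 9, 59 members). With a limit of 0.5 Mb there were 10 clusters and 14 members outside.

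Most members were expressed at a low to moderate level in all lines. The median over members of the mean TPM, which accounts for gene length, was 5.85, with quartiles of 2.8 and 10.5. The mean was at least 10 TPM for 65 members and under 1 TPM for 27, and 204 members had at least 1 TPM in every sample. In single samples, 209 to 225 members reached 1 TPM, and the highest numbers were those of the P4 samples with 225 in each.

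The member with the highest level was ZNF146, which encodes a protein made almost wholly of zinc fingers, with a mean of 123 TPM and a range of 88.6 to 153 TPM over the 8 samples. It was followed by ZNF93, a repressor of LINE-1 elements, with a mean of 59.7 TPM (43.1 to 86.1 TPM). ZNF738 had a mean of 55.3 TPM (33.9 to 75.0 TPM), ZNF649 one of 50.6 TPM (31.5 to 68.8 TPM) and ZNF544 one of 42.6 TPM (24.6 to 57.3 TPM). The ranges of these 4 genes overlapped, so their order was not separated from the spread of the samples. None of the 5 genes was called in any comparison, and their log2 fold changes in P3 and P4 compared with P1 and P2 hESCs lay between 0.03 (ZNF738) and 0.25 (ZNF649). The values of ZNF146 and ZNF738 were negative on the log2 TPM scales.

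Members at 0 lay side by side. The 9 successive members from ZNF208 to ZNF728 in cluster 4, between positions 21932958 and 23003176, had no count in any sample, apart from 1 count of ZNF723 in P4 replicate 2. These are ZNF208, ZNF257, ZNF676, ZNF729, ZNF98, ZNF492, ZNF99, ZNF723 and ZNF728. A count of 0 allows a level of up to 3 counts, which was between 0.073 and 0.103 CPM in these samples, for counting error only. The flanking members were expressed, with a mean of 14.9 TPM for ZNF43 on one side and 4.59 TPM for ZNF730 on the other. Reads shared with paralogs could have been assigned to other genes of the family by the counting.

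Counts per gene carry an uncertainty of their own in this family. RSEM divides reads that match several genes among them, and 135 of the 249 members had a count that was not whole (by more than 0.005) in at least 1 sample. Exons of 85 members overlapped those of another annotated gene on the same strand and exons of 79 overlapped a gene on the other strand. Whether the counting used the strand is not given in the sources used here. Of the members named below, ZNF560, ZNF880, ZNF528, ZNF229, ZNF667, ZNF471, ZNF835 and ZNF132 had whole counts in all samples. ZNF439 and ZNF726 had 1 sample with a count that was not whole, ZNF506 had 5, and ZNF578 and ZNF558 had 6.

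Of the 249 members, 235 had enough counts to be tested, and 14 did not, 9 of them the genes from ZNF208 to ZNF728. Of the tested members, 5 passed the filter through 1 line alone, ZNF491, ZNF534, ZNF667 and ZNF471 through P4 hESCs and ZNF540 through P3 hESCs, so counts over tested members include genes that could hardly have been equal between lines. In ZNF560 and ZNF528 no early line had both samples at the filter level of 0.293 CPM, and in ZNF726 no late line had. These 3 genes were tested through the lines where they are high, so their calls between early and late lines add nothing to their levels. A gene was called where its absolute log2 fold change was above 1 and its FDR was under 0.01 by edgeR's quasi-likelihood test on rounded expected counts, adjusted over all 19499 genes tested.

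In P2 compared with P1 hESCs, no member was called, and no gene of the 19499 was (0.0% higher and 0.0% lower). At an unadjusted p under 0.05 there were 14 members, or 5.96%, compared with 9.14% of all genes, and DESeq2 called 0 members. Differences that did not pass included the lower values of ZNF528, ZNF726 and ZNF835 and the higher value of ZNF229 in P2 hESCs, chosen after their values had been seen, with log2 fold changes of -2.75, -2.38, -2.0 and 2.53 and FDRs of 0.22, 0.20, 0.31 and 0.11 from edgeR. ZNF534 had a value of -2.33 that rests on 1 count in the 4 samples (FDR 0.78 from edgeR).

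Between the 4 early samples (P1 and P2 hESCs) and the 4 late samples (P3 and P4 hESCs), 6 members were higher and 1 was lower in the late samples, which is 2.55% and 0.426% of the tested members. Over all genes, 1.06% were called higher and 1.14% lower. The members that rose were ZNF560, ZNF880, ZNF528, ZNF439, ZNF835 and ZNF578, and the one that fell was ZNF726. In P3 compared with P1 hESCs, 4 members rose and 3 fell, with 1.3% and 2.63% of all genes called in these directions. In P4 compared with P1 hESCs, 11 members rose and 1 fell, with 0.954% and 1.16% of all genes called. The comparisons of P3 and of P4 hESCs share the P1 samples. In P4 compared with P3 hESCs, 6 members were higher and none was lower, with 0.554% and 0.262% of all genes called.

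**Figure D1:**
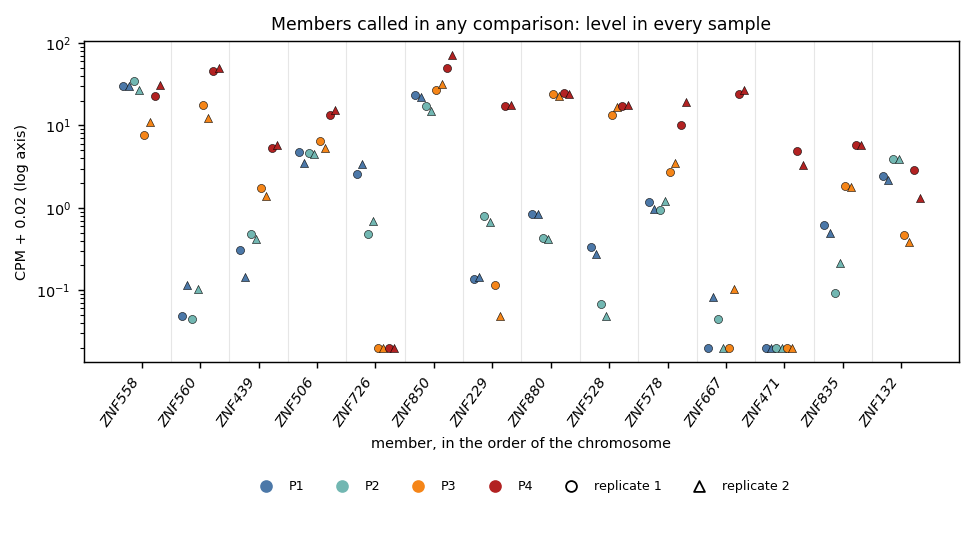
Level of the 14 members called in any comparison, in CPM with 0.02 added on a log axis, in each of the 8 samples; circles are replicate 1 and triangles replicate 2 of each line. ZNF560, ZNF880 and ZNF528 have all P3 and P4 samples above 12 CPM and all P1 and P2 samples under 1 CPM, and ZNF229, ZNF667 and ZNF471 are high in the P4 samples.

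ZNF880, ZNF528 and ZNF560 were under 1 CPM in every P1 and P2 sample and above 12 CPM in every P3 and P4 sample. ZNF880 (ENSG00000221923) had 0.831 and 0.819 CPM in P1, 0.414 and 0.392 CPM in P2, 24.0 and 22.7 CPM in P3 and 25.1 and 24.4 CPM in P4 hESCs. The late samples lay close together, far above all early samples. The log2 fold change was 4.82 (SE 0.27, FDR 6.5e-07 from edgeR) in P3 and 4.90 (SE 0.27, FDR 7.3e-07 from edgeR) in P4 compared with P1 hESCs, and P4 and P3 hESCs did not differ by a called amount (log2 fold change 0.08, SE 0.21).

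ZNF528 (ENSG00000167555) is the next coding gene of cluster 8. It had 0.315 and 0.252 CPM in P1, 0.0487 and 0.028 CPM in P2, 13.3 and 16.8 CPM in P3 and 17.4 and 17.9 CPM in P4 hESCs. As with ZNF880, no P1 or P2 sample reached the level of a P3 or P4 sample. The log2 fold changes against P1 hESCs were 5.70 (SE 0.34, FDR 1.2e-06 from edgeR) in P3 and 5.93 (SE 0.34, FDR 1.2e-06 from edgeR) in P4 hESCs.

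ZNF560 (ENSG00000198028), in cluster 2, did not exceed 3 counts in any early sample. Its level was 17.8 and 12.3 CPM in P3 and 45.7 and 49.4 CPM in P4 hESCs. Both groups of samples were therefore apart, and the P4 samples were above the P3 samples. Against the level of 3 counts in a P1 sample, 0.0945 CPM, it was at least 159-fold higher in P3 hESCs and at least 503-fold higher in P4 hESCs. P4 hESCs were 3.16-fold higher than P3 hESCs (log2 fold change 1.66, SE 0.27, FDR 0.0065 from edgeR), a call lost when either P1, P3 or P4 sample was left out.

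ZNF439, ZNF835 and ZNF578 rose less and had a higher level in P4 than in P3 hESCs. ZNF439 had 0.126 to 0.463 CPM in the 4 early samples, 1.71 and 1.37 CPM in P3 and 5.36 and 5.72 CPM in P4 hESCs. ZNF835 had 0.073 to 0.602 CPM in the early samples, 1.83 and 1.76 CPM in P3 and 5.80 and 5.85 CPM in P4 hESCs. ZNF578 had 0.925 to 1.20 CPM in the early samples, 2.72 and 3.49 CPM in P3 and 9.99 and 19.2 CPM in P4 hESCs. All 3 genes had no overlap between early and late samples, and the P4 samples of ZNF578 differed almost as much from each other as from the P3 samples. The calls of these genes over the 4 early and 4 late samples depended on single samples, and each was lost without P1 replicate 1, P1 replicate 2, P2 replicate 1, P2 replicate 2 or P4 replicate 1.

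ZNF726 (ENSG00000213967) was the member that fell. It had 2.52 and 3.40 CPM in P1, 0.463 and 0.672 CPM in P2 and no count in the 4 late samples. Its call over the 4 early and 4 late samples was lost without any 1 of the P1, P3 and P4 samples, and those of the single lines were kept. P3 hESCs were at least 31.2-fold lower and P4 hESCs at least 28.8-fold lower than P1 hESCs, against the level of 3 counts (FDR 0.00021 and 0.00031 from edgeR). P2 hESCs lay between, and their difference from P1 hESCs did not pass (FDR 0.20 from edgeR). Its exons overlap a pseudogene on the same strand.

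A second group was high in P4 hESCs and at or near 0 in P3 hESCs. ZNF667 (ENSG00000198046), a gene often reported as methylated in tumours, had 24.4 and 27.0 CPM in P4 hESCs and at most 3 counts in each of the other 6 samples. It was at least 272-fold higher than in P1 hESCs and at least 271-fold higher than in P3 hESCs (FDR 4.9e-06 and 1.1e-05 from edgeR). ZNF471 (ENSG00000196263) had 4.91 and 3.33 CPM in P4 hESCs and no count in the other 6 samples, at least 43.6-fold higher than in P1 hESCs (FDR 0.00036 from edgeR). ZNF229 (ENSG00000278318) had 17.3 and 17.7 CPM in P4 hESCs, 0.115 and 0.126 CPM in P1, 0.779 and 0.644 CPM in P2 and 0.0948 and 0.0279 CPM in P3 hESCs. It was at least 185-fold higher in P4 than in P3 hESCs (FDR 2.1e-06 from edgeR) and 145-fold higher than in P1 hESCs (log2 fold change 7.14, SE 0.43, FDR 1.6e-06 from edgeR). The difference of ZNF229 between P4 and P3 hESCs was called under all 16 alternatives run. ZNF667 and ZNF471 passed the filter on low counts through their P4 samples alone, so their calls add nothing to the levels given here.

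In P3 hESCs, 2 members besides ZNF726 fell. ZNF558 had 30.4 and 30.2 CPM in P1, 34.9 and 27.0 CPM in P2, 7.74 and 10.9 CPM in P3 and 22.8 and 31.4 CPM in P4 hESCs. ZNF132 had 2.44 and 2.17 CPM in P1, 3.94 and 3.92 CPM in P2, 0.442 and 0.363 CPM in P3 and 2.88 and 1.28 CPM in P4 hESCs. For both genes the P3 samples were below all others, and the log2 fold changes against P1 hESCs were -1.70 (SE 0.25, FDR 0.0015 from edgeR) for ZNF558 and -2.51 (SE 0.45, FDR 0.0046 from edgeR) for ZNF132. Each call was lost without either P1 sample or P3 replicate 1, that of ZNF132 also without either P2 sample or P3 replicate 2. ZNF506 and ZNF850, which the rule for named genes did not take and which are named after their values were seen, complete the members called in P4 hESCs. ZNF506 had 13.5 and 15.2 CPM in P4 and 3.50 to 6.38 CPM in the other samples, and ZNF850 had 50.4 and 71.1 CPM in P4 and 14.9 to 32.0 CPM in the other samples. Both calls were lost without either P1 sample or P4 replicate 2.

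**Figure D2:**
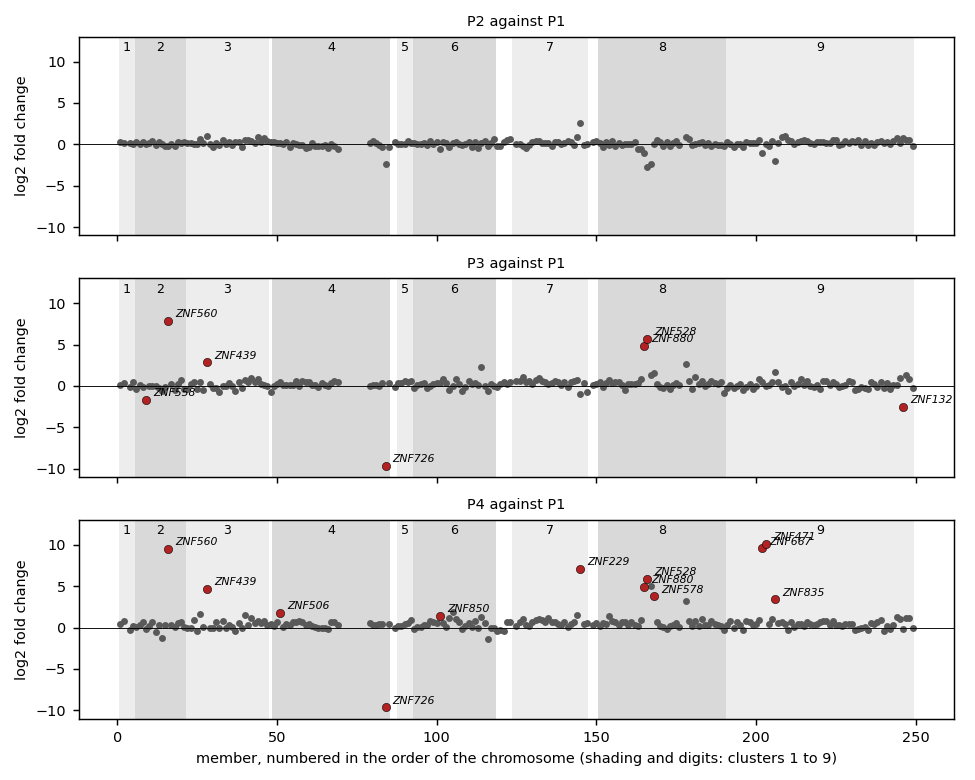
Log2 fold change of each tested member against P1 hESCs, with members numbered along the chromosome on the horizontal axis, for P2, P3 and P4 hESCs; red points are called members and shading marks clusters 1 to 9. The called members lie among many with values near 0, and the blank stretch in cluster 4 is the run of members without counts.

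The genes beside the switched members were compared, taking the 4 tested genes on either side. For ZNF560, ZNF229 and ZNF726, none of the 8 neighbours was called in P3 or P4 compared with P1 hESCs. Few calls would be found among any 8 genes, since 1.3% of all genes were called higher and 2.63% lower in P3 hESCs. In P4 hESCs these shares were 0.954% and 1.16%. ZNF426, whose start lies 40.0 kb from that of ZNF560, had 34.1 to 40.9 CPM in the early and 37.0 to 48.3 CPM in the late samples. ZNF180, 51.9 kb from ZNF229, had 20.5 and 21.3 CPM in P4 hESCs and 13.6 to 22.3 CPM in the other samples. These ranges overlapped. Those of ZNF560 and ZNF229 did not, but both were named for a difference without overlap, so this contrast was fixed in advance. Of the 8 neighbours of each of the 3 genes, 1 had an FDR under 0.05 in P3 or P4 hESCs. Over all 19499 genes tested, 2435 in P3 and 1159 in P4 compared with P1 hESCs had such an FDR. Near ZNF560, ZNF177 had 1.89 and 1.98 CPM in P4 and 2.56 to 4.80 CPM in the other samples, which did not overlap (log2 fold change -1.24 against P1 hESCs, FDR 0.038 from edgeR). Next to ZNF229, ZNF285 had 4.60 and 8.78 CPM in P4 and 1.64 to 4.60 CPM in the other samples (log2 fold change 1.56 against P1 hESCs, FDR 0.031 from edgeR). Near ZNF726, AC112702.1, whose start lies 3720 kb away, had a log2 fold change of -2.28 in P3 compared with P1 hESCs (FDR 0.044 from edgeR).

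ZNF880 and ZNF528 formed a run of called genes with the long noncoding gene between them. ZNF528-AS1, which starts 0.083 kb from ZNF528 on the other strand, had at most 0.115 CPM in the early samples and 6.38, 7.14, 9.85 and 7.27 CPM in the late samples in the order P3 replicates 1 and 2, then P4 replicates 1 and 2. It was called in both lines (FDR 5.9e-06 and 4.9e-06 from edgeR). ZNF528-AS1 passed the filter on low counts through its late samples alone, so these calls add nothing to its levels. The run of calls ended at ZNF610 on one side, with 1.74 to 3.47 CPM in the early and 4.74 to 7.36 CPM in the late samples. These ranges did not overlap, and ZNF610 was not called (log2 fold changes 0.82 in P3 and 0.87 in P4 against P1 hESCs, FDRs 0.12 and 0.15 from edgeR). The end of the run is thus set by the thresholds. On the other side lay ZNF534 and ZNF578. ZNF534 reached 0.446 and 0.740 CPM in P4 hESCs and passed the filter on low counts through these samples alone. Its FDR of 0.03 from edgeR therefore adds nothing to these levels. ZNF578 was called in P4 but not in P3 compared with P1 hESCs (log2 fold change 1.54 in P3, FDR 0.022 from edgeR). Beyond both genes, ZNF808 had 9.04 to 18.9 CPM in the early and 12.0 to 26.1 CPM in the late samples and was not called.

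ZNF667 and ZNF471 flank ZNF667-AS1, whose start lies 0.815 kb from that of ZNF667. This gene had 16.4 and 12.8 CPM in P4 hESCs and at most 1 count in the other samples. It passed the filter on low counts through its P4 samples alone, so its call (FDR 1.3e-05 from edgeR) adds nothing to these levels. Exons of ZNF667 and ZNF667-AS1 overlap on opposite strands. ZFP28, the next gene, encodes another KRAB zinc finger protein and had 13.9 and 16.7 CPM in P4 and 5.88 to 8.40 CPM in the other samples, which did not overlap but was not called (FDR 0.033 from edgeR). ZNF71, farther on, had 16.0 and 24.9 CPM in P4 and 8.73 to 14.1 CPM in the other samples and was not called either (FDR 0.029 from edgeR). PEG3 is an imprinted zinc finger gene of the same cluster that is expressed from the paternal allele. It had 45.3 and 39.4 CPM in P4 hESCs and at most 0.697 CPM in the other samples (log2 fold change 11.14 against P1 hESCs, FDR 3e-06 from edgeR). PEG3 too passed the filter through P4 hESCs alone, so its call adds nothing to these levels. It was the 1 gene called in P4 hESCs among the 16 other chromosome 19 zinc finger genes listed, of which 13 were tested.

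**Figure D3:**
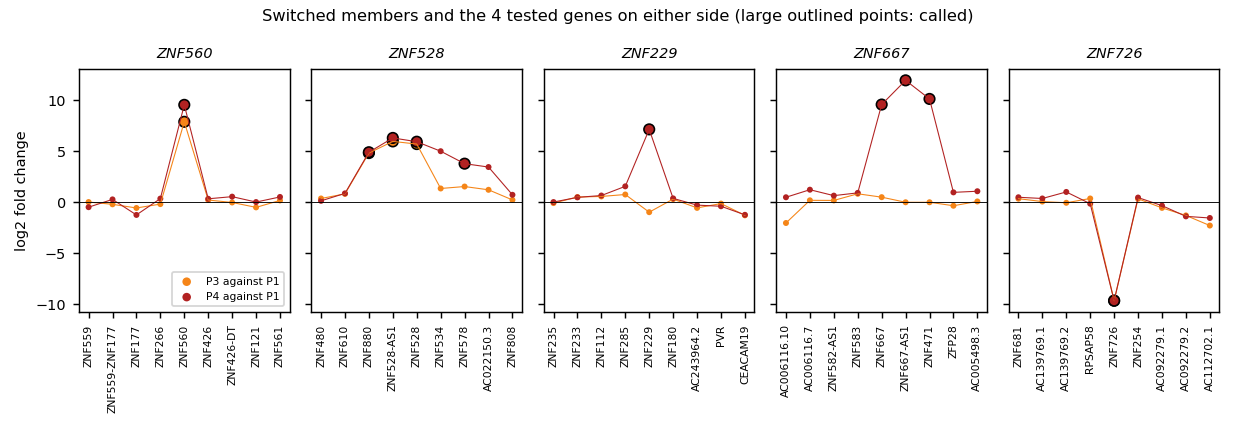
Log2 fold change against P1 hESCs of 5 switched members and the 4 tested genes on either side, in the order of the chromosome; orange is P3, red is P4 and large outlined points are called. None of the neighbours shown for ZNF560, ZNF229 and ZNF726 is called, whereas ZNF528 lies in a run with ZNF880 and ZNF528-AS1, and ZNF667 in a run with ZNF667-AS1 and ZNF471.

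Beside the few switched members, many members were slightly higher in later lines. The median log2 fold change of the 235 tested members was 0.24 in P3 and P4 compared with P1 and P2 hESCs, where that of all genes was 0.01, and 184 members had a positive value. These were 78.3% of the members, compared with 50.5% of all genes and 55.1% of the ZNF genes of other chromosomes. Against P1 hESCs the members' median was 0.15 in P2, 0.20 in P3 and 0.43 in P4 hESCs, and that of all genes was -0.01, -0.02 and -0.01. Positive values were found for 162, 163 and 196 members, or 68.9%, 69.4% and 83.4%. The shares were 48.6%, 48.4% and 49.3% for all genes and 63.7%, 58.8% and 64.1% for the ZNF genes of other chromosomes. In P4 compared with P3 hESCs the median was 0.18, with 178 positive members. This was 75.7% of the members, compared with 50.6% of all genes and 63.3% of the ZNF genes of other chromosomes. The medians were the same with genes at the floor set to their bound.

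All 4 late samples were above all 4 early samples for 50 members, or 21.3%, compared with 8.38% of all genes tested. They were below for 6 members, or 2.55%, compared with 9.19% of all genes. Both P4 samples were above the other 6 samples for 53 members, or 22.6%, compared with 6.02% of all genes, and below for 1 member, or 0.426%, compared with 5.52%. When no minimum fold change was set, an FDR under 0.05 was found for 18 members (7.66%) with a higher and 2 (0.851%) with a lower value in the late samples, compared with 3.5% and 4.04% of all genes. In both directions together these were 20 members, or 8.51%, compared with 7.54% of all genes, so the share of members past this threshold was near that of all genes.

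The other groups of genes moved less in P4 compared with P1 hESCs. The 245 tested ZNF genes of other chromosomes had a median of 0.20, the 104 other coding genes inside the clusters one of 0.20 and the 820 other coding genes of chromosome 19 outside the clusters one of 0.13. In P3 compared with P1 hESCs these medians were 0.09, -0.04 and -0.09. In P2 compared with P1 hESCs they were 0.12, 0.0 and -0.01, so ZNF genes of other chromosomes were near the members' 0.15. In P4 compared with P3 hESCs the order differed, with 0.25 for the other coding genes inside the clusters, 0.23 for those outside and 0.12 for ZNF genes of other chromosomes. The differences between groups of genes were not tested, and genes of a group are not independent.

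**Figure D4:**
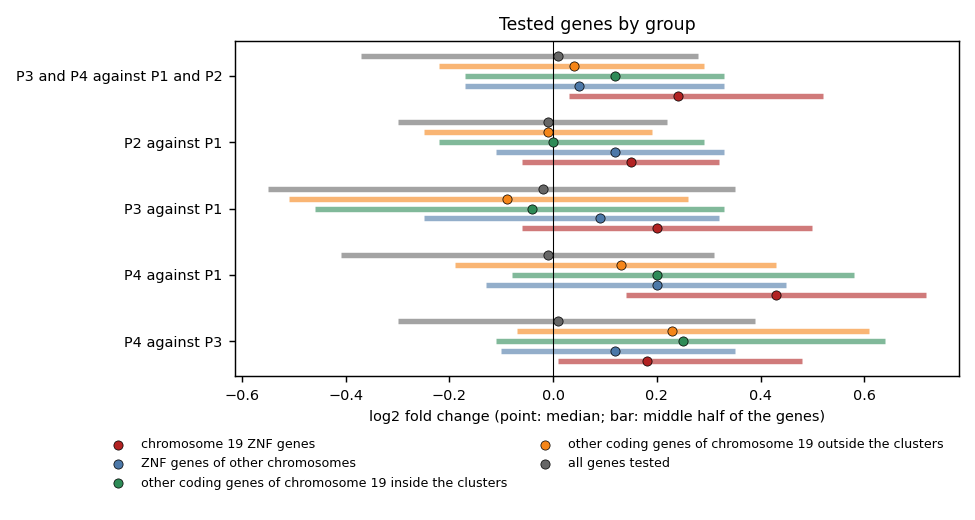
Log2 fold change of 5 groups of tested genes in the 5 comparisons; points are medians and bars span the first to the third quartile. The members have the highest median in each comparison except P4 against P3, where the other coding genes of chromosome 19 are higher.

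The small shift varied between samples of one line. Relative to the P1 mean, the median of log2(CPM + 0.1) over members was 0.06 and -0.06 in P1, 0.19 and 0.08 in P2, 0.31 and 0.14 in P3 and 0.37 and 0.44 in P4 hESCs. The P4 samples were above all others, whereas P2 replicate 1 was above P3 replicate 2. The mitochondrial share differed between these samples too, and samples of like share were compared. Between P1 replicate 2 and the late replicate 1 samples, all above 15% mitochondrial counts, the members' median was 0.37 higher in P3 and 0.45 higher in P4 hESCs. Between P1 replicate 1 and the late replicate 2 samples it was 0.06 higher in P3 and 0.44 higher in P4 hESCs. Each of these values sets 1 sample against 1 other and has no replicate, and the part of the mitochondrial share in the shift was not tested. No P2 sample was above 15%.

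By cluster, the median in P4 compared with P1 hESCs was positive in all 9 clusters, from 0.28 in cluster 2 to 0.66 in cluster 7, where 23 of 23 tested members had a positive value. It was 0.48 in cluster 8, with 37 of 39 members positive, and 0.41 in cluster 9, with 49 of 59 positive. Over all genes, 49.3% had a positive value. In P3 hESCs the median lay between -0.05 in cluster 2 and 0.51 in cluster 7. In P2 hESCs it lay between -0.04 in cluster 4 and 0.24 in cluster 3. The called members of P4 hESCs were spread over clusters 2, 3, 4, 6, 7, 8 and 9, with at most 3 in a cluster. Clusters 1 and 5, with 4 and 5 tested members, and the members outside the clusters held no call.

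**Figure D5:**
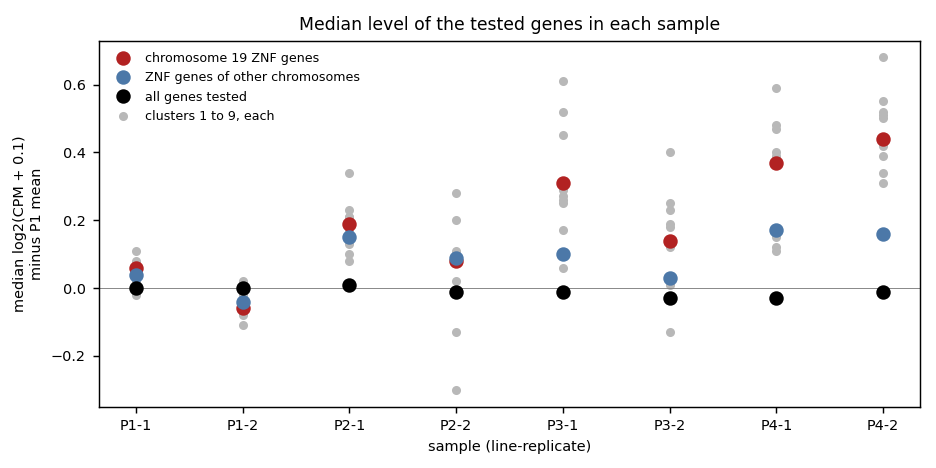
Median over tested genes of log2(CPM + 0.1) minus the mean of the P1 samples, in each sample; red is all members, blue the ZNF genes of other chromosomes, black all genes and grey each of the 9 clusters. The members' median is 0.37 and 0.44 in the P4 samples and that of all genes stays between -0.03 and 0.01.

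Members known to bind transposable elements were listed separately. Of the 7 genes, none was called in any comparison. Few calls would be found among any 7 genes, since at most 2.63% of all genes were called in 1 direction of a comparison. ZNF91, which binds SVA elements, had 30.6 to 43.9 CPM in the early and 33.5 to 44.4 CPM in the late samples. ZNF93 had 69.1 to 89.8 CPM in the early and 62.3 to 102 CPM in the late samples, and ZNF649 had 65.9 to 91.0 CPM and 67.0 to 125 CPM. ZNF417 and ZNF587, close paralogs that bind endogenous retroviruses, had 17.1 to 24.9 CPM and 40.1 to 43.2 CPM in the early samples and 14.8 to 21.1 CPM and 31.1 to 50.3 CPM in the late samples, with counts that were not whole in all samples. The early and late ranges of all 5 genes overlapped. ZNF808 and ZNF534, whose levels are given above, had log2 fold changes of 0.73 and 5.0 in P4 compared with P1 hESCs. ZNF534 was at 0 or near it in the other lines and passed the filter through its P4 samples alone. For the 7 genes, the median log2 fold change in P4 compared with P1 hESCs was 0.40, compared with 0.43 for all members.

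Of the 6 members often reported as methylated or imprinted, ZNF667 alone was called, in P4 hESCs. It passed the filter on low counts through its P4 samples alone, so the call says nothing about these 6 members. Over all genes, 0.954% were called higher and 1.16% lower in P4 compared with P1 hESCs. ZNF331, an imprinted gene, had 60.1 to 99.7 CPM in the early and 26.8 to 82.5 CPM in the late samples. ZNF154 had 21.6 to 24.0 CPM in the early and 15.6 to 29.5 CPM in the late samples. ZNF671, ZNF582 and ZNF264 had log2 fold changes of 0.07, 0.10 and 0.47 in P3 and P4 compared with P1 and P2 hESCs, and the last did not pass (FDR 0.11 from edgeR). ZNF274, which brings SETDB1 to the ends of zinc finger genes, had 38.2 to 43.6 CPM in the early and 23.0 to 32.6 CPM in the late samples. Its groups did not overlap, and the log2 fold change of -0.46 (SE 0.15, FDR 0.078 from edgeR) did not pass.

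Of the 20 listed KRAB co-repressor and HUSH genes, 1 was called. This was SUV39H1, a histone H3 lysine methyltransferase, with 22.0 to 26.6 CPM in the early and 39.0 to 60.3 CPM in the late samples (log2 fold change 1.02, SE 0.16, FDR 0.0037 from edgeR), a value close to the minimum, and the call was lost without any 1 of 6 samples. Over all genes, 1.06% were called higher and 1.14% lower in this comparison. SUV39H1 was also called in P3 compared with P1 hESCs (log2 fold change 1.16, SE 0.23, FDR 0.0084 from edgeR), where 1.3% of all genes were called higher. In P4 compared with P1 hESCs it was not called (log2 fold change 1.06, FDR 0.02 from edgeR). TASOR, a HUSH gene named after its values were seen, had 39.9 to 55.2 CPM in the early and 27.2 to 35.0 CPM in the late samples. These ranges did not overlap, and TASOR was not called (log2 fold change -0.58, SE 0.15, FDR 0.036 from edgeR). TRIM28 had 716 to 889 TPM and SETDB1 15.3 to 32.7 TPM over all samples. Their log2 fold changes in P3 and P4 compared with P1 and P2 hESCs were 0.29 and 0.04, and neither was called, with SETDB1 negative on the log2 TPM scales. Of the 9 listed DNA methylation genes, none was called in any comparison, and their median difference on the log2 scale in P4 compared with P1 hESCs was -0.15. Few calls would be found among any 9 genes, with 0.954% of all genes called higher and 1.16% lower there. TET1 and DNMT3L are named after their values were seen. TET1 had 57.8 and 59.5 CPM in P4 and 67.3 to 113 CPM in the other samples (log2 fold change -0.88 against P1 hESCs, FDR 0.012 from edgeR). DNMT3L had at most 0.063 CPM in the early and 0.101 to 0.412 CPM in the late samples, near the level of 3 counts.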

How the data were processed

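Messenger RNA of 4 lines of H9 hESCs (P1 to P4) was sequenced, with 2 samples each. Per the submitters' processing notes, the tools were FastQC, Trim Galore, STAR 2.7.3a and RSEM 1.3.3 on GRCh38. The authors deposited, for each gene and sample, an expected count (the raw RSEM estimate, unscaled) and a TPM value that accounts for gene length. The annotation release is not given in the sources used here; GENCODE release 29 supplied symbols and positions, and 57055 identifiers matched.

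Expected counts were rounded and tested in R 4.3.3 with edgeR 4.0.16 (TMM, filterByExpr with the 4 lines as groups, quasi-likelihood test, Benjamini-Hochberg adjustment over 19499 genes). A gene was called above an absolute log2 fold change of 1 and under an FDR of 0.01. Early (P1, P2) and late (P3, P4) hESCs were tested as 2 groups of 4, and single lines in a model of 4 groups. CPM uses the TMM factors. Folds against groups at or under 3 counts in every sample use the highest CPM of 3 counts in that group. Alternatives were DESeq2 1.42.0 (the tool named in the study), its size factors, no filter, limma 3.58.1 on log2(TPM + 1) and log2(TPM + 0.1), a replicate block, other models, an FDR of 0.05, no mitochondrial genes and each sample left out. The comparison of samples of like mitochondrial share was chosen after seeing the data. Figures used Python 3.11.15 with pandas 2.3.3 and matplotlib 3.10.9.

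The members and gene lists were chosen with earlier results of these data known. Named members were those called in P3 and P4 hESCs, the 5 largest rises and falls of each line comparison without overlap between samples, the 5 highest by mean TPM and the listed members; others are marked. Listed genes outside the members were named where called, with TRIM28, SETDB1 and the hESC markers. On simulated counts for 19499 genes, edgeR called 98.5% of genes changed by 2 on the log2 scale in 4 samples against 4, with 4 unchanged genes, and 86.4% in P2 against P1, with 6. Of genes changed by 1, 60.3% and 11.8% had an FDR under 0.01. The simulated lines of a group did not differ, whereas real lines did and counted as error. The values for 4 samples against 4 therefore do not carry over to the real test. The counts of 26874899 to 38095600 per sample place 3 counts at 0.073 to 0.103 CPM, which covers counting error only. The chi-squared per gene between replicates averaged 20.3 to 152 in the lines, so no samples were merged.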

Additional observations from a re-analysis of the deposited data

Results flagged for a closer look

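In 2 of 45 groups of 4 samples, 1 sample lay far from the rest; chance alone gives about 2.25. For ZNF649 in P1 and P2 hESCs the gap was 0.866 of the range of log2 CPM, since P1 replicate 2 had 65.9 CPM and the remaining samples had 87.1 to 91.0 CPM. For ZNF154 in P3 and P4 hESCs the gap was 0.888 of the range, since P3 replicate 1 had 15.6 CPM and the remaining samples had 27.4 to 29.5 CPM. Both samples have a mitochondrial share above 15%, and its part was not tested.

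Tested directly, P4 differed from P3 hESCs in 6 members, all higher in P4 hESCs. The log2 fold changes were 10.12 for ZNF471, 9.07 for ZNF667, 8.11 for ZNF229, 2.23 for ZNF578, 1.66 for ZNF560 and 1.54 for ZNF558. With 1 sample left out, the differences of ZNF578 and ZNF558 were called in 1 of 8 fits and that of ZNF560 in 2 of 8. The first 3 values come from genes at or under 3 counts in both P3 samples and depend on the prior count of the fit.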

How the results depend on the processing

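The number of members called moved with the processing. In P3 and P4 compared with P1 and P2 hESCs it was 7, and became 14 in the 4-group model, 13 with DESeq2, 14 without a filter, 4 with log2(TPM + 0.1), 3 with log2(TPM + 1) and 20 at an FDR under 0.05 without a minimum fold change. In P2 compared with P1 hESCs it was 0, and 2 without a filter. In P3 compared with P1 hESCs it was 7, and 11 with DESeq2, 11 without a filter, 4 on each log2 TPM scale and 12 at the wider FDR. In P4 compared with P1 hESCs it was 12, and 22 without a filter and 19 at the wider FDR. In P4 compared with P3 hESCs it was 6, and 15 with DESeq2, 16 without a filter, 3 with log2(TPM + 0.1) and 14 at the wider FDR. With 1 sample left out, the lone sample of a line being assumed to vary like the other lines, the counts ranged from 3 to 8, 0 to 0, 4 to 8, 9 to 13 and 3 to 5 in this order of comparisons.

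The replicate numbers did not pair the samples, since the replicate differences of pairs of lines correlated across genes with r between -0.133 and 0.195. With the replicate block, 4 members were called in P3 and P4 compared with P1 and P2 hESCs, and 0, 7, 13 and 7 in the other comparisons.

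ZNF560, ZNF880 and ZNF528 in both late lines together, and ZNF726, ZNF229, ZNF578 and ZNF439 in P4 compared with P1 hESCs, were called under all 16 alternatives run for them. ZNF667 and ZNF471 were too, but entered these fits through their P4 samples alone. Likewise, ZNF560 and ZNF528 entered through their late samples and ZNF726 through its early samples, so their calls add nothing to the levels given above. Of 912 values of single genes under alternatives, 786 kept their direction and side of the thresholds, 97 lost a call, 8 gained one and 21 changed sign. The sign changes were in values near 0 of genes that were not called. On log2(TPM + 0.1) and log2(TPM + 1), they were -0.04 and -0.04 for ZNF146, -0.09 and -0.09 for ZNF738, -0.07 and -0.05 for ZNF154, -0.03 and -0.03 for ZNF671, -0.04 and -0.03 for ZNF582 and -0.27 and -0.26 for SETDB1. With each sample left out in turn, the values ranged from -0.12 to 0.13 for ZNF738, -0.10 to 0.41 for ZNF808, -0.19 to 0.04 for ZNF587, -0.01 to 0.18 for ZNF671, -0.02 to 0.26 for ZNF582 and -0.01 to 0.08 for SETDB1.

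The members' median was positive under all 80 alternatives over the 5 comparisons, and moved by more than the spread between replicates in 12. In P2 compared with P1 hESCs it was 0.44 on log2(TPM + 0.1), where all genes had a median of 0.19. In P3 and P4 compared with P1 and P2 hESCs it was 0.08 on log2(TPM + 1), with -0.09 for all genes. The cause was not tested. Depth limits the members near 0.1 CPM, where a difference under 3 counts is not detectable.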
